A study of Mus musculus with 12 samples.

Results

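The secreted Wnt antagonists were taken as 10 genes, the secreted frizzled-related proteins *Frzb*, *Sfrp1*, *Sfrp2*, *Sfrp4* and *Sfrp5*, the Dickkopf genes *Dkk1*, *Dkk2* and *Dkk3*, *Wif1* and *Sost*. They were found by symbol among the 35976 gene symbols of the normalized count table, and all 10 were present, each with 1 to 3 transcript rows that were summed. RNA was sequenced from 2 clonal lines, P3D8 and P3E3, each 1 clone of lacZ+ fibroblasts from the terminal phalanx of the mouse digit, at passage 6. Each line was grown as a monolayer, on fibronectin in medium with EGF (10 ng/ml), PDGF (10 ng/ml), LIF (0.5 ng/ml) and 2% serum, and collected at 80% confluency. The same lines were grown as cartilage aggregates (P3D8/BMP9 and P3E3/BMP9) on uncoated dishes in 2% serum with BMP2 (50 ng/ml) for 4 days, followed by BMP9 (50 ng/ml), which the study's methods put at 14 days. There were 3 cultures in each of the 4 groups. Culture form, growth factors, BMPs and time differ together between cartilage and monolayer, so their parts in a difference cannot be told apart.

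Wnt proteins bind Frizzled receptors and the co-receptors LRP5 and LRP6, and in the canonical branch this stabilizes beta-catenin. Secreted antagonists act outside the cell, in either of these ways: the frizzled-related proteins and WIF1 bind the Wnt ligands, whereas DKK1, DKK2 and sclerostin, the product of *Sost*, bind the co-receptors. In the skeleton *Frzb* is known as a gene of developing and articular cartilage, *Wif1* as a gene of cartilage surfaces and bone, and *Sost* chiefly as a gene of osteocytes.

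The bases just before the start site are shown for *Wif1*, the most counted antagonist, and for *Sost*, the antagonist with the largest difference between the cartilages. Capitals mark TATAAA, the TATA box motif, in *Wif1* (chr10:121033754-121033959, plus strand) and CCAAT, the CCAAT box motif, in *Sost* (chr11:101967016-101967265, minus strand), each found on the opposite strand and so read here as TTTATA and ATTGG. The sequences are from RefSeq promoter windows of the mouse build GRCm38.p6 (mm10), trimmed to the bases before every annotated start.
Wif1: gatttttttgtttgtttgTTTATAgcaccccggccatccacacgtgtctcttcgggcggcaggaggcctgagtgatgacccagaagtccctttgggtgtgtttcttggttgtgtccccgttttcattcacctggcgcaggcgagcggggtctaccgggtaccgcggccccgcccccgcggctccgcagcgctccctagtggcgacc
Sost: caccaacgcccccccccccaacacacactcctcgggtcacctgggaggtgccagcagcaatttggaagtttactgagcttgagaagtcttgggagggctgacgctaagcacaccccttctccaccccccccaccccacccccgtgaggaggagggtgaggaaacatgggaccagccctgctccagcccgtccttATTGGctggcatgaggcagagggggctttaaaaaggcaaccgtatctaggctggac
Windows of 250 bases before and 50 bases after the start were matched for 7 of the 10 genes. Searched on both strands, TATAAA stood in 13.6% of all 32851 windows and CCAAT in 37.4%. These motifs were searched after the windows had been read. GGCGCC, an element bound by BMP-activated Smads, stood in 11.9% of windows and in none of the 7. CAGAC, the Smad binding element, stood in 49.6% of windows and in those of *Sfrp2*, *Sfrp5* and *Dkk1*. CTTTGA, the TCF/LEF core, stood in 16% of windows and in those of *Frzb* and *Dkk1*. A match describes letters only.

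The libraries held 7269748 to 8662298 reads on annotated transcripts, recovered from the steps of the normalized values. No replicate differed from another by as little as sampling noise. Title and cell line entry disagreed on the clone for 4 libraries, 1 in each group. The title was followed here, and values without these 4 are given for the comparisons between the lines. P3E3/BMP9 replicate 1, among these 4, had the lowest *Frzb* and the highest *Sfrp2* value of its group but stayed on the P3E3/BMP9 side of every P3D8/BMP9 library. Counts were given per transcript accession, and genes with several rows had low sums: *Gapdh*, with 3 rows, came to 4.07 normalized counts over all 12 libraries, whereas *Actb*, with 1 row, had 16849 to 31428 in each. A value at or near 0 for an antagonist with several rows was therefore not read as absence.

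The 4 antagonists abundant enough to test, *Wif1*, *Frzb*, *Sfrp2* and *Sost*, all rose in the cartilage of both lines from at most 3 reads in any monolayer library. *Wif1*, the Wnt inhibitory factor, had 61888, 61299 and 58812 normalized counts in the P3D8/BMP9 cultures. It had 97485, 86900 and 97912 in the P3E3/BMP9 cultures. In the monolayers its values were 0, 0.643 and 1.86 for P3D8 and 0.604, 0.593 and 0 for P3E3. Every cartilage library was thus far above every monolayer library, and *Wif1* ranked 12 to 14 among all genes by normalized count in P3D8/BMP9 and 8 to 10 in P3E3/BMP9. It took 0.950% of all normalized counts in P3D8/BMP9 and 1.37% in P3E3/BMP9.

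*Frzb*, which encodes secreted frizzled-related protein 3, followed at a lower level. Its normalized counts were 5372, 4997 and 5017 in P3D8/BMP9. They were 15955, 18754 and 21837 in P3E3/BMP9. The monolayers had 0.652, 1.93 and 0 for P3D8 and 1.21, 0.593 and 1.22 for P3E3. Among all genes *Frzb* ranked 156 to 182 in P3D8/BMP9 and 50 to 65 in P3E3/BMP9, again with no overlap between cartilage and monolayer.

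*Sfrp2*, another Wnt-binding frizzled-related protein, and *Sost* were listed at 0 in all 6 monolayer libraries. *Sfrp2* (2 rows) had 101.4, 84.9 and 83.9 normalized counts in P3D8/BMP9 and 48.3, 26.5 and 23.2 in P3E3/BMP9. *Sost* (2 rows) had 20.9, 22.2 and 53.8 in P3D8/BMP9 and 143.2, 150.5 and 163.1 in P3E3/BMP9. The order of the cartilages was thus opposite for these 2 genes, with P3D8/BMP9 higher for *Sfrp2* and P3E3/BMP9 higher for *Sost*. Of other osteocyte genes, *Dmp1* (2 rows) was listed at 0 in every library, which was not read as absence. *Mepe* averaged 7.09 in P3D8/BMP9 and 0.511 in P3E3/BMP9, and *Phex* 9.97 and 18.5.

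**Figure D1:**
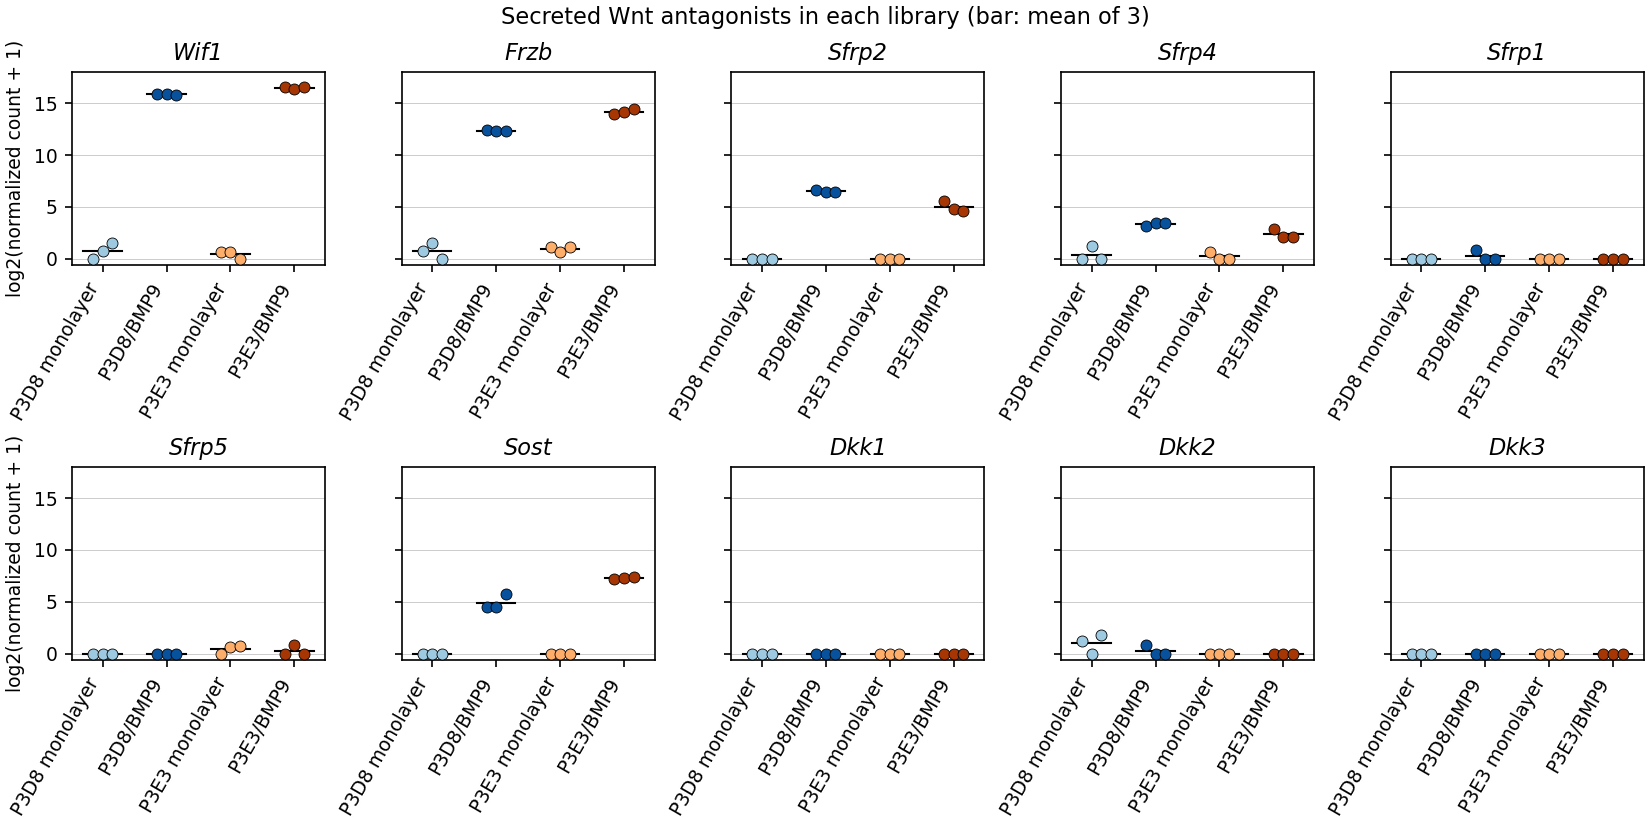
Each point is 1 library and each bar the mean of 3, as log2 of the normalized count plus 1, for the 10 secreted Wnt antagonists in the 4 groups. *Wif1* and *Frzb* are high in all 6 cartilage libraries, and *Sfrp2* and *Sost* lie far below them there but above every monolayer library. *Sfrp4* is low in cartilage, and the other 5 genes lie at or near 0 in every library.

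The remaining frizzled-related genes were scarce. *Sfrp4* (1 row) had 8.20, 9.89 and 10.3 normalized counts in P3D8/BMP9 and 6.13, 3.31 and 3.43 in P3E3/BMP9. In the monolayers it had 0, 1.29 and 0 for P3D8 and 0.604, 0 and 0 for P3E3, so cartilage and monolayer did not overlap in either line, at between 0 and 13 reads per library. *Sfrp5* (1 row) reached 0.827 at most and was above 0 in 3 libraries. *Sfrp1* (2 rows) had 1 read, in P3D8/BMP9 replicate 1.

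The Dickkopf genes gave almost no reads. *Dkk1*, an inhibitor of the LRP5 and LRP6 co-receptors (1 row), was listed at 0 in all 12 libraries. With a limit of 3 reads over the 3 libraries of a group, this allows a mean of up to 0.638 normalized counts in P3D8 monolayer, 0.786 in P3D8/BMP9, 0.602 in P3E3 monolayer and 0.815 in P3E3/BMP9. *Dkk3*, a divergent member of the family (3 rows), was at 0 in all 12 libraries too. *Dkk2* (2 rows) had 2 and 4 reads in P3D8 monolayer replicates 1 and 3 and 1 read in P3D8/BMP9 replicate 1. Limits and intervals on reads cover counting error only.

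Whether the antagonists changed with cartilage formation was tested with limma on log2 of the normalized count plus 1, over the 5294 genes with a mean of at least 10, with Benjamini-Hochberg adjustment over all of them. The 4 tested antagonists were higher in P3D8/BMP9 than in P3D8 monolayer, a call made for 37.6% of all tested genes (38.7% were called lower). They were also higher in P3E3/BMP9 than in P3E3 monolayer, a call made for 41.6% (38.1% were called lower). All 4 reached the minimum mean only through the cartilage libraries, with monolayer means of at most 1.01. A call of lower was thus hardly possible, and the calls and the median below describe these genes without testing them as a set. The fitted log2FC of *Wif1* was 15.14 in P3D8 (SE 0.28, limma adjusted p = 7.47e-15), the second highest of the 5294, and 16.07 in P3E3 (limma adjusted p = 2.34e-15), the highest. *Frzb* had 11.57 in P3D8 (SE 0.28, limma adjusted p = 1.39e-13) and 13.20 in P3E3 (limma adjusted p = 1.83e-14), at places 8 and 6. *Sfrp2* had 6.50 and 5.00, at places 102 and 268, and *Sost* had 4.92 and 7.26, at places 202 and 112. Over the 4 genes the median log2FC was 9.03 in P3D8 and 10.23 in P3E3, against -0.03 and 0.07 over all tested genes. It was 9.36 and 10.59 with *Sfrp2* and *Sost* set at the bounds given next.

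Because the monolayers held so few reads, these fitted values depend on the constant of 1, and ratios of pooled reads were computed as well. *Wif1* had 231706 reads in P3D8/BMP9 against 4 in its monolayer, a ratio of 71284 with a 95% exact counting interval of 27841 to 261628. In P3E3 it had 346459 reads against 2, a ratio of 234670 (64963 to 1937750). For *Frzb* the ratios were 6033 in P3D8 (2356 to 22143) and 18683 in P3E3 (8005 to 57540). The intervals of the 2 lines overlapped for both genes. Against a limit of 3 reads over the monolayer group, *Sfrp2* was at least 142-fold higher in P3D8/BMP9 and at least 55.1-fold higher in P3E3/BMP9. *Sost* was at least 50.5-fold and at least 252-fold higher. *Sfrp4*, below the minimum for the test, had a ratio of 22.2 in P3D8 (5.70 to 190) and 21.7 in P3E3 (3.37 to 909). In a fit with no minimum its log2FC was 2.98 (limma adjusted p = 4.66e-05) in P3D8 and 2.14 (limma adjusted p = 0.00116) in P3E3.

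The cartilages of the 2 lines were compared directly. *Frzb* and *Sost* were lower in P3D8/BMP9 than in P3E3/BMP9, and *Sfrp2* was higher. Of the 4 tested antagonists, 2 were called lower and 1 higher, calls made for 28.3% and 22.1% of all tested genes. The study had named these 3 genes from the same libraries, so their calls are not independent evidence. *Frzb* averaged 5129 ± 211 in P3D8/BMP9 and 18849 ± 2942 in P3E3/BMP9 (SD, n = 3 each), 3.68-fold apart, with a log2FC of -1.87 (SE 0.28, limma adjusted p = 0.000101). *Sost* averaged 32.3 ± 18.6 and 152.3 ± 10.0 (SD, n = 3 each), 4.71-fold apart, with a log2FC of -2.34 (SE 0.32, limma adjusted p = 3.86e-05). *Sfrp2* averaged 90.1 ± 9.86 and 32.6 ± 13.6 (SD, n = 3 each), 2.76-fold apart the other way, with a log2FC of 1.504 (SE 0.28, limma adjusted p = 0.000604). With the study's threshold of 1.5 on the log2FC as well, the same 3 genes passed, with 3.51% of all tested genes lower and 4.89% higher. In all 3 genes the 3 libraries of a cartilage lay wholly on 1 side of the other cartilage. This describes the values behind the calls and is no further evidence. The share of all tested genes so separated is not given, and 50.4% were called in either direction. Leaving out any 1 library kept the 3 calls at an adjusted p under 0.05, with log2FC between -1.98 and -1.75 for *Frzb*, -2.76 and -2.10 for *Sost* and 1.30 and 1.82 for *Sfrp2*. *Sfrp2*, barely above the threshold of 1.5 in the main fit, fell below it in some of these fits. Without the 4 libraries whose entry names the other clone, *Frzb*, *Sost* and *Sfrp2* had -2.01, -2.14 and 1.73 (limma adjusted p = 0.000534, 0.00427 and 0.0031). With libraries grouped by that entry instead, the 3 genes had -0.82, -0.52 and 0.80 and did not pass, and limma called no gene at all between the cartilages.

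*Wif1* averaged 60666 ± 1633 in P3D8/BMP9 and 94099 ± 6238 in P3E3/BMP9 (SD, n = 3 each), a ratio of 1.55, and the libraries did not overlap. Its log2FC of -0.63 (95% interval -1.23 to -0.04) did not pass in the model of all 12 libraries (limma adjusted p = 0.0728). That model takes its spread for *Wif1* also from monolayers of 0 to 3 reads. In a model of the 6 cartilage libraries the same log2FC had a 95% interval of -0.86 to -0.40 and passed (limma adjusted p = 0.000678). On the recovered reads of all 12 libraries it passed in edgeR (-0.56, adjusted p = 0.000404) and in DESeq2 (-0.58, adjusted p = 3.93e-11). In limma it passed without P3D8 monolayer replicate 1 or replicate 3 (limma adjusted p = 0.0174 and 0.0135). It also passed without the 4 libraries of conflicting entries (-0.62, limma adjusted p = 0.0394). Of 25 alternatives it passed in 7. It did not pass with the same total per library (limma adjusted p = 0.176) or a replicate block (limma adjusted p = 0.0979). Nor did it pass without any 1 cartilage library (limma adjusted p = 0.107 to 0.154). *Sfrp4* was higher in every P3D8/BMP9 library than in any P3E3/BMP9 library, at 9.46 ± 1.10 and 4.29 ± 1.59 (SD, n = 3 each). The two-sided exact permutation p was 0.1, the smallest that 3 against 3 can give.

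**Figure D2:**
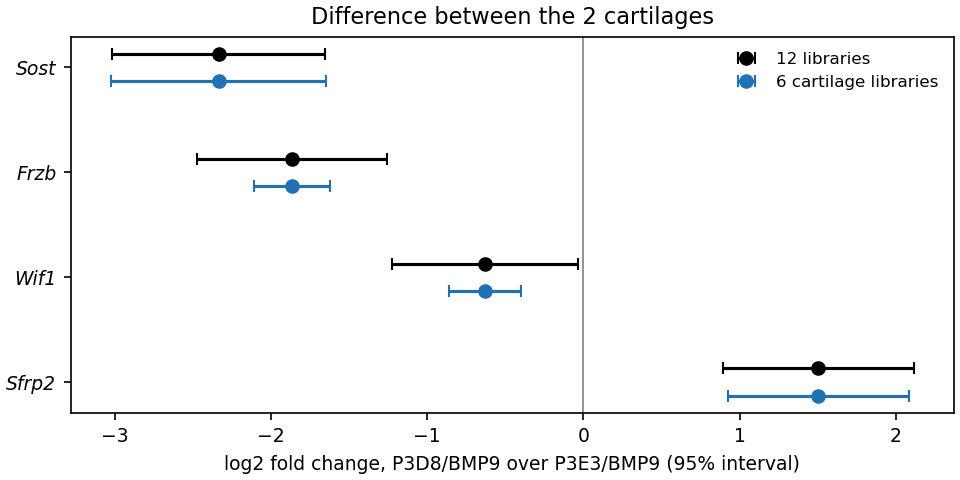
Points are log2FC of P3D8/BMP9 over P3E3/BMP9 and bars the 95% interval, from limma on all 12 libraries (black) and on the 6 cartilage libraries (blue). *Sost*, *Frzb* and *Wif1* lie below 0 and *Sfrp2* above it, and the bar of *Wif1* is much shorter in the model of 6 libraries.

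The mix of antagonists within a culture differed between the cartilages in a way that no scaling of the libraries can alter. *Wif1* stood at 11.5, 12.3 and 11.7 times *Frzb* in the P3D8/BMP9 libraries and at 6.11, 4.63 and 4.48 times in the P3E3/BMP9 libraries. The ratio was thus 2.35-fold greater in P3D8/BMP9, with no overlap. The ratio of *Sost* to *Sfrp2* was 0.206, 0.262 and 0.642 in P3D8/BMP9 and 2.97, 5.69 and 7.04 in P3E3/BMP9. *Sfrp2* was thus the more counted of this pair in every P3D8/BMP9 library and *Sost* in every P3E3/BMP9 library, a 15.1-fold shift. *Frzb* stood at 53.0 to 59.8 times *Sfrp2* in P3D8/BMP9 and at 331 to 942 times in P3E3/BMP9. *Wif1* stood at 1093 to 2964 times *Sost* in P3D8/BMP9 and at 578 to 681 times in P3E3/BMP9. Each of the 4 ratios had a two-sided exact permutation p of 0.1, the smallest this design allows. The ratios restate the differences of the single genes given above and are not independent evidence.

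**Figure D3:**
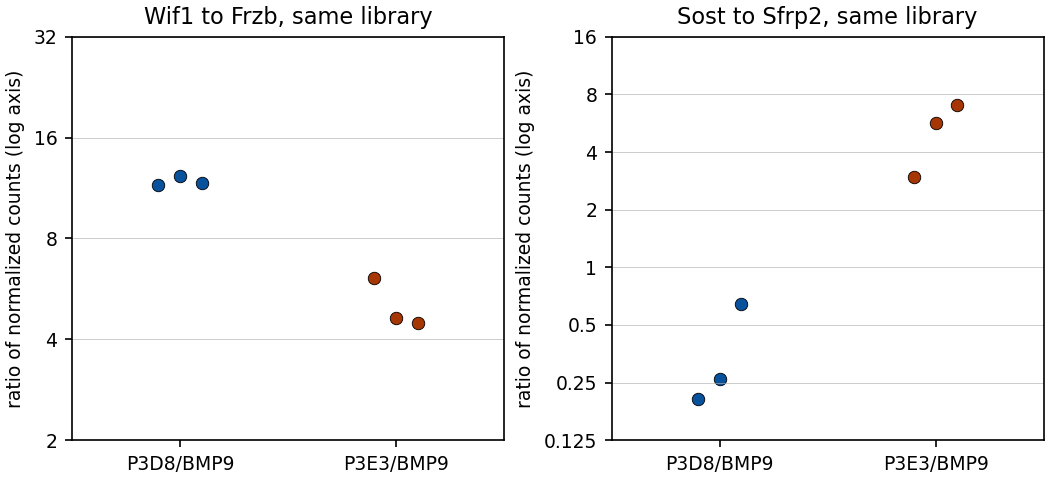
Each point is the ratio of 2 antagonists' normalized counts within 1 cartilage library, on a log axis, for *Wif1* to *Frzb* (left) and *Sost* to *Sfrp2* (right). The P3D8/BMP9 ratios are higher on the left, at 11.5 to 12.3 against 4.48 to 6.11, and lower on the right, at 0.206 to 0.642 against 2.97 to 7.04.

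Levels were set against each other per kilobase of transcript, since longer transcripts give more reads. *Wif1* had 26446 ± 712 normalized counts per kilobase in P3D8/BMP9 and 41020 ± 2719 in P3E3/BMP9 (SD, n = 3 each). *Frzb* had 1629 ± 67.0 and 5986 ± 934 (SD, n = 3 each). Per kilobase *Wif1* exceeded *Frzb* by 15.8 to 16.8 times in P3D8/BMP9 and by 6.15 to 8.39 times in P3E3/BMP9. *Sfrp2* had 45.0 ± 4.93 and 16.3 ± 6.81, *Sost* 15.6 ± 9.01 and 73.7 ± 4.86, and *Sfrp4* 5.36 ± 0.63 and 2.43 ± 0.90 per kilobase (SD, n = 3 each). The order from *Wif1* and *Frzb* downward held in every cartilage library, whereas *Sfrp2* and *Sost*, whose 2 rows may lose reads, changed places between the cartilages.

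Between the monolayers, 0 of the 4 tested antagonists passed in limma, edgeR or DESeq2, where limma called 26.6% of all tested genes higher in P3D8 and 23.2% lower. Each monolayer library held 0 reads of *Sfrp2* and *Sost* and 0 to 3 of *Wif1* and *Frzb*. With so few reads the comparison could not show whether the lines differed. *Wif1* had a log2FC of 0.29 there (limma adjusted p = 0.41) and *Frzb* -0.23 (limma adjusted p = 0.537), and no unadjusted p was under 0.05 for any of the 4. *Wif1* passed without P3D8 monolayer replicate 1 (0.67, limma adjusted p = 0.0258) and *Frzb* without P3D8 monolayer replicate 2 (-0.63, limma adjusted p = 0.0278), each at 0 to 3 reads per library. Without the 4 libraries of conflicting entries the values turned to -0.32 for *Wif1* (limma adjusted p = 0.245) and 0.23 for *Frzb* (limma adjusted p = 0.534). The difference of the cartilage response between the lines was also tested, P3D8 minus P3E3. *Frzb* (-1.64, SE 0.40, limma adjusted p = 0.00428) and *Sost* (-2.34, SE 0.45, limma adjusted p = 0.000764) passed as lower and *Sfrp2* (1.504, SE 0.40, limma adjusted p = 0.00731) as higher, calls made for 27.6% and 18.6% of all tested genes. *Wif1* did not pass (-0.93, limma adjusted p = 0.0675), but did without P3D8 monolayer replicate 1 (-1.30, limma adjusted p = 0.00328). Without the 4 libraries of conflicting entries, *Frzb* had -2.25, *Sost* -2.14 and *Sfrp2* 1.73 and still passed, and *Wif1* had -0.30 (limma adjusted p = 0.448). For *Sost* and *Sfrp2*, with both monolayers at 0, this value is the same number as the difference between the cartilages. None of the 4 passed this test in edgeR, where the lowest adjusted p was 0.217, or in DESeq2, where it was 0.184, both for *Frzb*. The values themselves were -1.59 for *Frzb*, -2.16 for *Sost* and 1.53 for *Sfrp2* in edgeR and -1.59, -2.28 and 1.42 in DESeq2.

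The genes most like the 2 abundant antagonists were ranked by Pearson's r of log2 values over the 12 libraries, among 3432 genes. Closest to *Wif1* were *Ptgis*, prostacyclin synthase (0.999), *Rspo3*, an R-spondin (0.999), and *Hp*, haptoglobin (0.998). Closest to *Frzb* were *Scrg1* (0.998), *Ppp1r3c*, a glycogen-targeting phosphatase subunit (0.998), and *Ppp1r1b* (0.998). All 12 points share the split of cartilage from monolayer, which sets most of these values, so they are given as a description.

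The rest of the Wnt pathway was read from lists. Over the monolayers, 37.6% of all tested genes were called higher in P3D8/BMP9 (38.7% lower) and 41.6% in P3E3/BMP9 (38.1% lower). Of 9 other extracellular inhibitors, 4 were tested, and 3 rose and 1 fell in the cartilage of both lines. *Trabd2b*, which encodes the Wnt-cleaving protease TIKI2, had log2FC of 7.81 in P3D8 and 9.37 in P3E3. *Igfbp4*, an IGF-binding protein that also binds Wnt receptors, had 4.40 and 4.71 and was the most counted inhibitor, at 150422 ± 15117 in P3D8/BMP9 and 133289 ± 19686 in P3E3/BMP9 (SD, n = 3 each). *Notum*, a deacylase that removes the lipid of Wnt proteins, was at 0 in all monolayers and at least 32.8-fold higher in P3D8/BMP9 and 84.4-fold higher in P3E3/BMP9. *Apcdd1*, a membrane-bound inhibitor, fell by 1.93 and 1.41 on the log2 scale. The median of the list was 4.42 in P3D8 and 5.19 in P3E3, or 4.72 and 5.55 with *Notum* at its bound. Like *Frzb* and *Sost*, *Trabd2b*, *Notum* and *Apcdd1* were lower in P3D8/BMP9 than in P3E3/BMP9 (log2FC of -1.08, -1.23 and -1.57, limma adjusted p = 0.00354, 0.00147 and 8.4e-07). That call was made for 28.3% of all tested genes, and *Igfbp4* did not pass (0.18, limma adjusted p = 0.227). Unlike *Frzb* and *Sost*, *Apcdd1* was already lower in the P3D8 than in the P3E3 monolayer, at 85.4 and 178.8 on average (-1.06, limma adjusted p = 3.03e-05). The difference of the cartilage response passed as lower for *Trabd2b*, *Notum* and *Apcdd1* (-1.56, -1.23 and -0.51, limma adjusted p = 0.00347, 0.0144 and 0.0497). It did so for 27.6% of all tested genes, and *Igfbp4* did not pass (-0.31, limma adjusted p = 0.149).

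Of the ligands that the antagonists act on, 2 of 19 were tested. *Wnt10a* fell in both lines, with log2FC of -2.14 in P3D8 and -2.94 in P3E3. *Wnt5a*, a mostly non-canonical ligand, had 0.48 in P3D8 (limma adjusted p = 0.192) and fell by 1.14 in P3E3, and the difference of the response passed (1.62, limma adjusted p = 0.01). *Wnt10a* had 42.7 to 90.6 normalized counts in P3D8/BMP9 and 0 to 6.89 in P3E3/BMP9. It already differed between the monolayers, averaging 298 in P3D8 and 23.3 in P3E3 (log2FC of 3.67, limma adjusted p = 7.94e-05). Its difference of the response did not pass (0.80, limma adjusted p = 0.42). The summed ligand values were 93.4 to 170.6 in P3D8/BMP9 and 43.8 to 51.3 in P3E3/BMP9, where the summed antagonists were 63976 to 67392 and 105835 to 119938. The antagonist sum was nearly all *Wif1* and *Frzb*, with 1 row each, and 10 of the 19 ligands or more were listed at 0 in each group. Some ligands also have 1 row, but *Wnt5a* has 6, *Wnt5b* 5 and *Wnt11* 7. Such genes may have lost reads, so the 2 sums cannot be compared as levels and the values at 0 were not read as absence.

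Of 18 receptors and co-receptors 11 were tested, and 9 rose and 1 fell in the cartilage of both lines, with a median log2FC of 1.95 in P3D8 and 3.04 in P3E3. *Fzd9* had 8.84 and 7.95. *Lrp5*, a target of DKK1 and sclerostin, had 5.29 and 5.26, and *Lrp4*, which also binds sclerostin, 5.84 and 4.81. *Fzd3* fell by 1.10 and 1.14 on the log2 scale. The response differed between the lines for 6 of the 11, where 46.2% of all tested genes were called in either direction, higher in P3D8 for *Fzd1* (0.71), *Fzd2* (0.35) and *Lrp4* (1.03) and lower for *Fzd4* (-1.19), *Fzd8* (-0.94) and *Ror2* (-1.42), all by limma with adjusted p of at most 0.0276. *Fzd8* had 2.35 in P3D8 and 3.28 in P3E3. Between the cartilages themselves *Fzd2*, *Lrp4* and *Fzd8* did not pass (log2FC of 0.007, -0.006 and 0.15). Between the monolayers, P3D8 against P3E3, they did (-0.35, -1.04 and 1.09, limma adjusted p of at most 0.00362). *Lrp5* itself had 1006 ± 132 normalized counts in P3D8/BMP9 and 736 ± 55.0 in P3E3/BMP9 (SD, n = 3 each), with a log2FC of 0.45 (limma adjusted p = 0.0475).

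Of 9 R-spondin genes and their receptors 3 were tested, and *Rspo3* and *Lgr4*, which strengthen Wnt signals, rose in both lines, with a list median of 4.36 in P3D8 and 4.12 in P3E3. *Rspo3* went from at most 0.621 normalized counts to 2681 ± 152 in P3D8/BMP9 and 2417 ± 508 in P3E3/BMP9 (SD, n = 3 each), a log2FC of 11.16 in P3D8 and a rise of at least 3985-fold in P3E3. *Lgr4* had 4.36 and 4.12. The difference of the response between the lines did not pass for either gene. Of 17 intracellular relay genes 4 were tested, with medians of 0.55 and 0.64. In P3D8 2 rose, and in P3E3 3 rose and 1 fell. The untested genes include *Ctnnb1* (2 rows), *Apc* (12 rows) and *Gsk3b* (3 rows), whose values at or near 0 were not read as absence. *Pygo1*, a co-activator of beta-catenin, had 6.07 and 5.12, *Bcl9l* 0.95 and 0.87, and *Dvl2* 0.06 (limma adjusted p = 0.583) and -0.84, with a difference of 0.89 (limma adjusted p = 9.22e-05).

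Of 15 genes listed as canonical targets and feedback inhibitors 5 were tested, and 3 rose and 1 fell in both lines, *Notum* and *Apcdd1* among them. The untested genes include *Axin2* (5 rows), *Lef1* (6 rows), *Myc* (4 rows) and *Ccnd1* (2 rows), whose values at or near 0 were not read as absence. The tested genes thus do not stand for the whole list. *Wisp2* had 10.15 in P3D8 and 9.39 in P3E3, and *Nkd2*, an inhibitor that binds Dishevelled, 5.60 in P3D8 and a rise of at least 21.7-fold in P3E3. Both responses were larger in P3D8, by 0.76 for *Wisp2* (limma adjusted p = 0.0469) and 1.83 for *Nkd2* (limma adjusted p = 0.00793). The median of the list was 4.43 in P3D8 and 3.77 in P3E3, or 5.04 and 4.44 with genes at 0 in the monolayers at their bounds. The counts on these lists were not compared by a test with other genes.

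**Figure D4:**
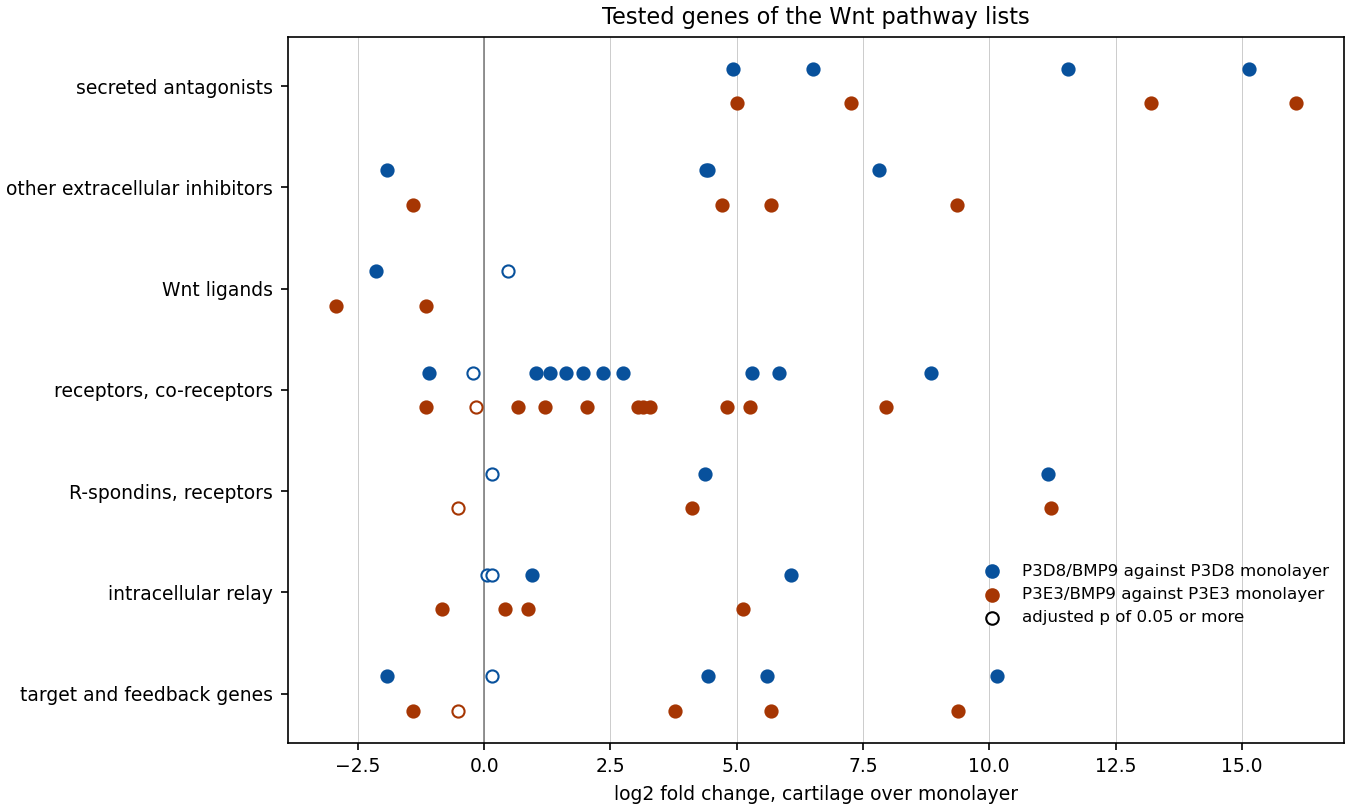
Each point is 1 tested gene of a Wnt pathway list, placed by its log2FC of cartilage over monolayer in P3D8 (blue) and P3E3 (brown), with open points where the limma adjusted p was 0.05 or more. All 4 secreted antagonists lie at 4.92 or higher in both lines, and *Wif1*, at 15.14 and 16.07, lies farthest right.

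Markers of cell state differed between the groups as well. The 11 chondrocyte markers, 10 of them above 0 in each cartilage, summed to 4094 to 4234 in P3D8/BMP9 and 7128 to 9999 in P3E3/BMP9, against 724 to 921 in the monolayers. Most of the gap between the cartilages was *Col9a2* (124 against 3117 on average) and *Sox9* (3869 against 4962), whereas *Col2a1* averaged 72.4 and 72.8, *Acan* 28.5 and 30.1, and *Comp* 23.9 and 14. The 7 markers of hypertrophic chondrocytes, all above 0 in cartilage, summed to 6397 to 13158 in P3D8/BMP9 and 17116 to 45527 in P3E3/BMP9. Of the 5 tested, *Panx3*, *Ihh* and *Mmp13* were lower in P3D8/BMP9 (log2FC of -3.08, -3.48 and -1.52, limma adjusted p = 8.96e-10, 0.00127 and 0.00585). A call of lower was made there for 28.3% of all tested genes. *Col10a1* (-0.56, limma adjusted p = 0.513) and *Ibsp* (1.68, limma adjusted p = 0.0632) did not pass. *Spp1* (5 rows) and *Alpl* (7 rows), with too few counts to test, averaged 15.3 and 17.1 in P3D8/BMP9 against 3.27 and 13.5. The 7 fibroblast markers summed to 975792 to 1051620 in P3D8/BMP9 and 472306 to 533047 in P3E3/BMP9, nearly all from the collagen genes *Col1a1*, *Col1a2* and *Col3a1*. Of the 6 tested, 5 rose in the cartilage of each line, a call made for 37.6% of all tested genes in P3D8 and 41.6% in P3E3. *Pdgfra* fell by 1.10 and 1.87 on the log2 scale, and *Thy1* was lower in P3D8/BMP9 than in P3E3/BMP9 (503 against 1149 on average). The 7 osteoblast and osteocyte markers summed to 348885 to 365881 and 114516 to 133761, nearly all *Col1a1*, which is in both lists. Apart from it, *Bglap* averaged 1255 and 819, *Mepe* 7.09 and 0.511, and *Phex* 9.97 and 18.5. *Dmp1* (2 rows) was at 0, which was not read as absence. The 3 endothelial and 3 skeletal muscle markers were listed at 0 in every library, and epithelial and blood markers summed to at most 6.43. Of these, *Pecam1* and *Ptprc* have 9 rows each, *Krt14* 3, and *Cdh5*, *Kdr*, *Cd68* and *Acta1* 2, so their values were not read as absence. *Spp1*, *Alpl*, *Col2a1* (3 rows), *Acan* (2 rows) and *Comp* (2 rows) may have lost reads too, so their low values were not read as scarcity. In bulk RNA, fewer cells of a type and less RNA per cell cannot be told apart, and the part of these markers in the antagonists' differences was not tested.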

How the data were processed

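Per the labels and the study's methods, polyA RNA was sequenced as 100-base paired reads on BGISEQ-500, aligned to mm10 with HISAT2 and counted with htseq-count. Versions, annotation and strand setting are not given in the sources used here. The deposited values are a count signal per transcript, which the authors divided by DESeq2 median-of-ratios size factors computed together with public cartilage data not analysed here. A deposited table of the authors' own comparison was not used.

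Whole reads were recovered for 100% of values, within 0.01 reads, and each library held 7269748 to 8662298 of them. Values were summed per symbol. limma (3.58.1, R 4.3.3) with an intensity trend was fitted to log2(value + 1) of 12 libraries and 5294 genes with a mean of at least 10, and calls were made at an adjusted p under 0.05. The value + 1 scale understates changes of low genes. edgeR (4.0.16) and DESeq2 (1.42.0) on recovered reads, other pseudocounts, minimums and scaling, the study's log2FC threshold of 1.5, a 6-library model, a replicate block and leaving out each library were alternatives. Permutation and counting intervals used SciPy (1.17.1). The fit was tested on simulated data.

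Lengths came from GENCODE, positions and promoter windows from RefSeq. All antagonists were named, and from each pathway list every gene whose cartilage response differed between the lines and the 4 largest called changes. The members and lists were chosen with earlier results of these data known. Cultures were labelled as separate samples of a group.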

Additional observations from a re-analysis of the deposited data

Results flagged for a closer look

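The cartilage response of 3 antagonists differed between the lines, P3D8 minus P3E3, by limma's test of the difference itself. It was -1.64 on the log2 scale for *Frzb*, with higher values in P3E3/BMP9. It was 1.504 for *Sfrp2*, with higher values in P3D8/BMP9. It was -2.34 for *Sost*, with higher values in P3E3/BMP9. The monolayers held 0 to 3 reads of each gene per library. For *Frzb* the value was -1.24 without P3D8 monolayer replicate 2 and -2.02 without P3D8 monolayer replicate 3, and between -1.75 and -1.53 without any 1 cartilage library. On recovered reads, edgeR gave -1.59 for *Frzb*, 1.53 for *Sfrp2* and -2.16 for *Sost*, and DESeq2 gave -1.59, 1.42 and -2.28, and neither called any of the 3.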

How the results depend on the processing

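The 4 rises in cartilage of each line kept their direction and call under every alternative that tested the gene. With a mean of at least 50 only *Wif1* and *Frzb* were tested, which left 2 members higher in each line, 0 higher and 1 lower between the cartilages, and 0 higher and 1 lower in the difference of the response. Grouped by the cell line entry instead of the title, 0 members were higher and 0 lower between the cartilages and in the difference of the response, and limma called no gene at all in either, with 31 and 49 of 5294 genes at an unadjusted p under 0.05. With edgeR and with DESeq2, 0 members were higher and 0 lower in the difference of the response. Between the monolayers, leaving out 1 library gave 0 to 1 members higher (*Wif1* without P3D8 monolayer replicate 1, 0.67, limma adjusted p = 0.0258) and 0 to 1 lower (*Frzb* without P3D8 monolayer replicate 2, -0.63, limma adjusted p = 0.0278). Of the log2FC of single members under the alternatives, 452 kept direction and call, 12 lost the call, 11 gained it and 7 turned in sign without a call. Over 25 alternatives *Wif1* passed between the cartilages in 7, with adjusted p from 3.93e-11 to 1.

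Counts over all genes moved more. With no minimum, 3933 genes were higher in P3D8/BMP9 than its monolayer (1992 with it) and 3622 in P3E3/BMP9 (2204). With a mean of at least 50, 1292 were higher in P3D8/BMP9 than its monolayer, and 777 were higher than in P3E3/BMP9 (1168). With the threshold of 1.5 the higher and lower counts were 1002 and 538 in P3D8, 1133 and 652 in P3E3, 259 and 186 between the cartilages, 352 and 93 between the monolayers, and 268 and 424 for the difference of the response. With the same total per library the median of all genes was -0.43 in P3D8 and -0.56 in P3E3 (-0.03 and 0.07 in the main scaling), the higher share of calls was 35.3% and 34.2% (49.3% and 52.2%), 54.9% between the cartilages (43.8%), 42.2% between the monolayers (53.4%) and 57.7% in the difference of the response (40.2%, 1490 against 983 genes). No member changed direction or call. With no minimum the higher share was 62.3% in P3D8. Without the 4 libraries of conflicting entries 640 genes were higher in the difference.

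Samples of the same number shared only the number: deviations correlated between -0.299 and 0.245. With the replicate block *Wif1* between the cartilages kept -0.63 (limma adjusted p = 0.0979), and no member's call changed. The 6-library models gave no value for the difference of the response. Depth limited *Sfrp1*, *Sfrp4*, *Sfrp5* and the Dickkopf genes, at 13 reads or fewer per library, and all members in the monolayers.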
